A study of Mus musculus with 9 samples.

Results

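Imprinted genes are transcribed mainly from the allele of one parent, and the 41 described here were followed through RNA sequencing of the embryonic midbrain. The members were chosen from a list of symbols known for imprinting and were found in the deposited table through the Ensembl identifier that each symbol has in GRCm38. All 41 were among the 51912 genes of the table. They belong to 17 imprinted domains. From general knowledge 21 genes were classed as paternally expressed, 12 as maternally expressed and 8 as genes whose expressed allele depends on the tissue. These classes need not hold in every cell type of the midbrain. The table counts reads without separating the alleles, so the parental allele given for each gene is background and was not measured.

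Micro-dissected midbrains of C57Bl/6 mouse embryos at E14.5 were sequenced in 9 libraries, and each library held 2 pooled midbrains. There were 3 libraries of each genotype, called wild-type (*Nkx2.9*+/+), heterozygous (*Nkx2.9*LacZ/+) and homozygous (*Nkx2.9*LacZ/LacZ) below. In the LacZ allele, a LacZ gene with a nuclear localization signal replaces exon 1 of this homeobox gene, which is known from the ventral midbrain and hindbrain. The data set was made to ask what changes in the midbrain without *Nkx2.9*, and the imprinted genes were followed through the same 3 genotypes. Columns of the table carry a genotype and a running number, so libraries are named here as columns 1 to 3 for the homozygous, 4 to 6 for the heterozygous and 7 to 9 for the wild-type midbrains. The labels do not say whether libraries came from separate litters, so p-values measure the spread between these libraries.

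Imprinting rests on DNA methylation that is laid down in one germ line at imprinting control regions and then kept in the cells of the embryo. A control region often acts on a whole cluster, so that protein-coding genes are active on one chromosome and a long non-coding RNA on the other. Many imprinted genes act on fetal growth, with paternally expressed genes such as *Igf2* promoting it and maternally expressed genes such as *Igf2r*, *Cdkn1c* and *H19* restraining it. In the brain, imprinted genes are also known for roles in neuronal differentiation and behavior, and the loss of genes of the *Snrpn*-*Ube3a* domain is known from the Prader-Willi and Angelman syndromes.

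Several members are also hosts of microRNAs, whose target choice rests on the seed, bases 2 to 8 of the mature strand. In RefSeq annotation of GRCm38.p6, 30 microRNA hairpins with 56 mature microRNAs lay inside 8 members, with 14 hairpins in *Mirg*, 7 in *Rtl1*, 3 in *Rian*, 2 in *Meg3* and 1 each in *H19*, *Igf2*, *Mest* and *Usp29*. The sequences below show 1 microRNA each of *H19*, *Mest* and *Meg3*, 2 of *Rian* and mature strands of 3 of the 6 hairpins on the strand opposite to *Rtl1*, which pair fully with the *Rtl1* transcript because they are read from the other strand of its locus. The last 2 lines are the only pair of the 56 that shares a seed, both from *Mirg*. Capitals mark the seed, and all are written 5′ to 3′.
mmu-miR-675-5p (*H19*), chr7:142577112-142577133, - strand: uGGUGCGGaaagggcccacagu
mmu-miR-335-5p (*Mest*), chr6:30741314-30741336, + strand: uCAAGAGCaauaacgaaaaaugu
mmu-miR-770-5p (*Meg3*), chr12:109563710-109563731, + strand: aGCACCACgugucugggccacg
mmu-miR-341-5p (*Rian*), chr12:109611521-109611541, + strand: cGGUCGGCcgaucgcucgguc
mmu-miR-370-3p (*Rian*), chr12:109618305-109618326, + strand: gCCUGCUGggguggaaccuggu
mmu-miR-127-3p (opposite *Rtl1*), chr12:109592888-109592909, + strand: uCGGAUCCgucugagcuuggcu
mmu-miR-433-3p (opposite *Rtl1*), chr12:109591781-109591802, + strand: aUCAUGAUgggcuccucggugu
mmu-miR-136-5p (opposite *Rtl1*), chr12:109595331-109595352, + strand: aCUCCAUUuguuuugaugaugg
mmu-miR-453 (*Mirg*), chr12:109735669-109735692, + strand: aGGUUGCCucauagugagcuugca
mmu-miR-496a-5p (*Mirg*), chr12:109739132-109739152, + strand: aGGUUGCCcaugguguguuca

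The 56 mature microRNAs carried 55 different seeds. The libraries were not made for small RNA, and mature microRNAs were not measured. Of the 30 hairpin rows of the table, 13 held any read, and all 30 together held 530 reads over the 9 libraries. The row with the most, that of miR-1188 in *Rian*, held 122 reads.

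Imprinting control regions are also known for a short motif, TGCCGC, which the zinc finger protein Zfp57 binds when its CpG is methylated. It was searched on both strands, with no other motif searched, in RefSeq promoter windows of 300 bases (250 before and 50 after a start). Windows were at hand for 31 of the 41 members, and 10 of these 31 genes (32.3%) held the motif, beside 13.1% of 27025 genes. Counted by window, the motif was in 11 of 48 (22.9%), beside 11.6% of 32851 windows. The members' windows were also richer in CpG, with a median of 11 CpG for paternally expressed, 9 for maternally expressed and 18 for tissue-dependent genes, beside 7 over all windows, and its part in the motif counts was not tested. Control regions often lie outside promoters, and a match of letters is not a bound site. The windows of 30 bases below lie before the RefSeq start of 4 members and are shown because each holds the motif or its reverse complement GCGGCA, which stands in capitals.
*Zdbf2*, chr1:63200210-63200239, + strand: gctttgcggcttTGCCGCcttcacagatgc
*Mest*, chr6:30737971-30738000, + strand: aggaggggcgctGCGGCAggatgggcgggt
*Plagl1*, chr10:13090730-13090759, + strand: ctggcgtgttgcGCGGCAaagcccacggca
*Meg3*, chr12:109540794-109540823, + strand: gccaggggcactGCGGCAgatttttttttc

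The libraries held between 1692963 reads (column 7) and 5942192 reads (column 8) on genes, with 2584074 in column 4 and a median of 4921748. *Nkx2.9* (row *Nkx2-9*) had 4, 6 and 3 reads in columns 1 to 3, 0, 7 and 4 in columns 4 to 6 and 0, 2 and 2 in columns 7 to 9. Only its first exon is replaced and reads on the remaining exons are counted with it, so these few reads do not check the labels. Midbrain genes were present (*En1*, mean normalized count 238 over 9 libraries). The summed level of 5 midbrain markers was lower in the homozygous (952 to 1129) than in the wild-type libraries (1218 to 1327), with 967 to 1488 in the heterozygous ones. Between homozygous and wild-type, 3 of the 5 had a negative and 2 a positive log2 fold change, from -0.63 to 0.045. The paper reports *En1*, *En2* and *Pax7*, all on this list, as upregulated in homozygous midbrains, so the sum goes the opposite way. The reason was not tested, and the column labels were taken as given. Neuronal markers summed to 18295 to 18324 in homozygous, 17870 to 18509 in wild-type and 17030 to 20083 in heterozygous libraries. The part of these marker lists in the results below was not tested. Transcripts of the sex chromosomes differed between libraries. *Xist*, the non-coding RNA of the inactive X chromosome, stood at 4607 to 5182 normalized counts in columns 1 to 3 with Y-linked transcripts at 0 to 2.26, whereas Y-linked transcripts reached 606 and 1058 in columns 4 and 5 and 505 and 1075 in columns 8 and 9. Columns 6 and 7 were like columns 1 to 3, with *Xist* at 2929 and 4342 and Y-linked transcripts at 3.26 and 0. Column 8 also held *Xist*, at 2580. These transcripts therefore moved with genotype in part, and the comparison was repeated with *Xist* as a covariate.

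The imprinted genes took a steady and sizeable share of the RNA. Together they held 0.979% (column 6) to 1.15% (column 4) of all normalized counts. *Meg3* alone held 0.183% to 0.318% and *Nnat* 0.206% to 0.284%. Non-coding RNAs, 7 of the 41 genes, took 36.3% to 43.2% of the members' counts. To compare genes with each other, the normalized count of each gene was divided by the length of its merged exons in kilobases, and levels below are in that unit as mean ± SD over the 9 libraries.

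*Nnat*, which encodes neuronatin, a small membrane protein of differentiating neurons, stood far above the rest with a level of 5371 ± 605. Its lowest library (4658) lay above the highest library (740.0) of *Meg3*, the maternally expressed long non-coding RNA that came next with 580 ± 91.4. *Peg13*, a paternally expressed RNA made inside an intron of *Trappc9*, followed with 446 ± 32.7, and *Ndn*, which encodes the MAGE family protein necdin, with 356 ± 31.7. The ranges of *Meg3*, *Peg13* and *Ndn* each overlapped that of the next gene, so their order is not separated by the spread between libraries.

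The next 8 genes formed a continuous group. *Snrpn*, which encodes a spliceosomal protein of neurons, had a level of 271 ± 32.3, *Blcap*, the gene that contains *Nnat* in an intron, 265 ± 26.0, and *Peg10*, derived from a retrotransposon, 245 ± 19.2. *Inpp5f*, which encodes an inositol phosphatase, had 232 ± 24.6, and *Rian*, the host RNA of small nucleolar RNAs, 193 ± 18.0. *Mest*, a gene of the hydrolase fold, had 174 ± 18.8, *Peg3*, a zinc finger gene, 167 ± 7.79, and *Cdkn1c*, which encodes the cell cycle inhibitor p57, 159 ± 14.3. Below *Cdkn1c* there was a second gap, since its lowest library (139.9) lay above the highest of the next gene, *Magel2* (91.8).

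Another 23 genes lay between 76.0 and 9.45, with neighbors overlapping throughout. In the upper reach were *Magel2* (76.0 ± 9.39), a MAGE family gene, *Ppp1r9a* (75.9 ± 8.48), which encodes the actin binding protein neurabin, *Grb10* (74.5 ± 5.85), an adaptor of insulin and IGF receptors, and *Igf2r* (66.0 ± 6.02), the receptor that clears Igf2. *H19* (63.4 ± 7.67), *Dlk1* (56.9 ± 9.07), a membrane ligand related to Notch ligands, *Impact* (50.6 ± 6.94), an inhibitor of the kinase Gcn2, *Mirg* (45.3 ± 6.63) and the ubiquitin ligase gene *Ube3a* (44.6 ± 8.95) came next. *Trappc9* (41.8 ± 5.70), a gene of vesicle trafficking, *Rtl1* (41.4 ± 9.32), *Plagl1* (41.3 ± 5.98), a zinc finger gene, *Mkrn3* (37.7 ± 6.32), a RING finger gene, and *Igf2* (37.2 ± 5.38) differed by little.

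The lower reach held *Zdbf2* (36.5 ± 4.64), *Usp29* (26.4 ± 3.00), *Zim1* (22.9 ± 2.68), *Gnas* (21.4 ± 6.95), which encodes the stimulatory G protein subunit, *Asb4* (16.0 ± 2.69), *Sgce* (15.6 ± 1.25), which encodes epsilon-sarcoglycan, and *Zrsr1* (14.8 ± 2.82). *Kcnq1ot1* (13.7 ± 1.61), the antisense RNA of the *Kcnq1* domain, and *Commd1* (9.45 ± 2.37), the host gene of *Zrsr1*, closed this group. *Kcnq1ot1* had 1048 to 1474 normalized counts, and its low level comes from the division by an annotated exon of 93.092 kilobases.

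The remaining 6 genes were near the lower end. *Kcnk9*, a potassium channel gene, had a level of 5.24 ± 1.18 and *Dio3*, which encodes a deiodinase that inactivates thyroid hormone, 4.69 ± 2.22. *Kcnq1* (1.59 ± 1.11) and *Airn* (1.57 ± 0.601), the antisense RNA of the *Igf2r* domain, had 0 to 17 and 2 to 10 reads per library. *Slc22a18* had 7 reads in all, and *Phlda2* had 0 of 41253425 reads, where a count of 0 allows up to 3 by counting error alone. *Phlda2* and *Slc22a18* are known above all from the placenta, and both fell below the mean normalized count of 5 needed for a test, so 39 members were tested.

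**Figure D1:**
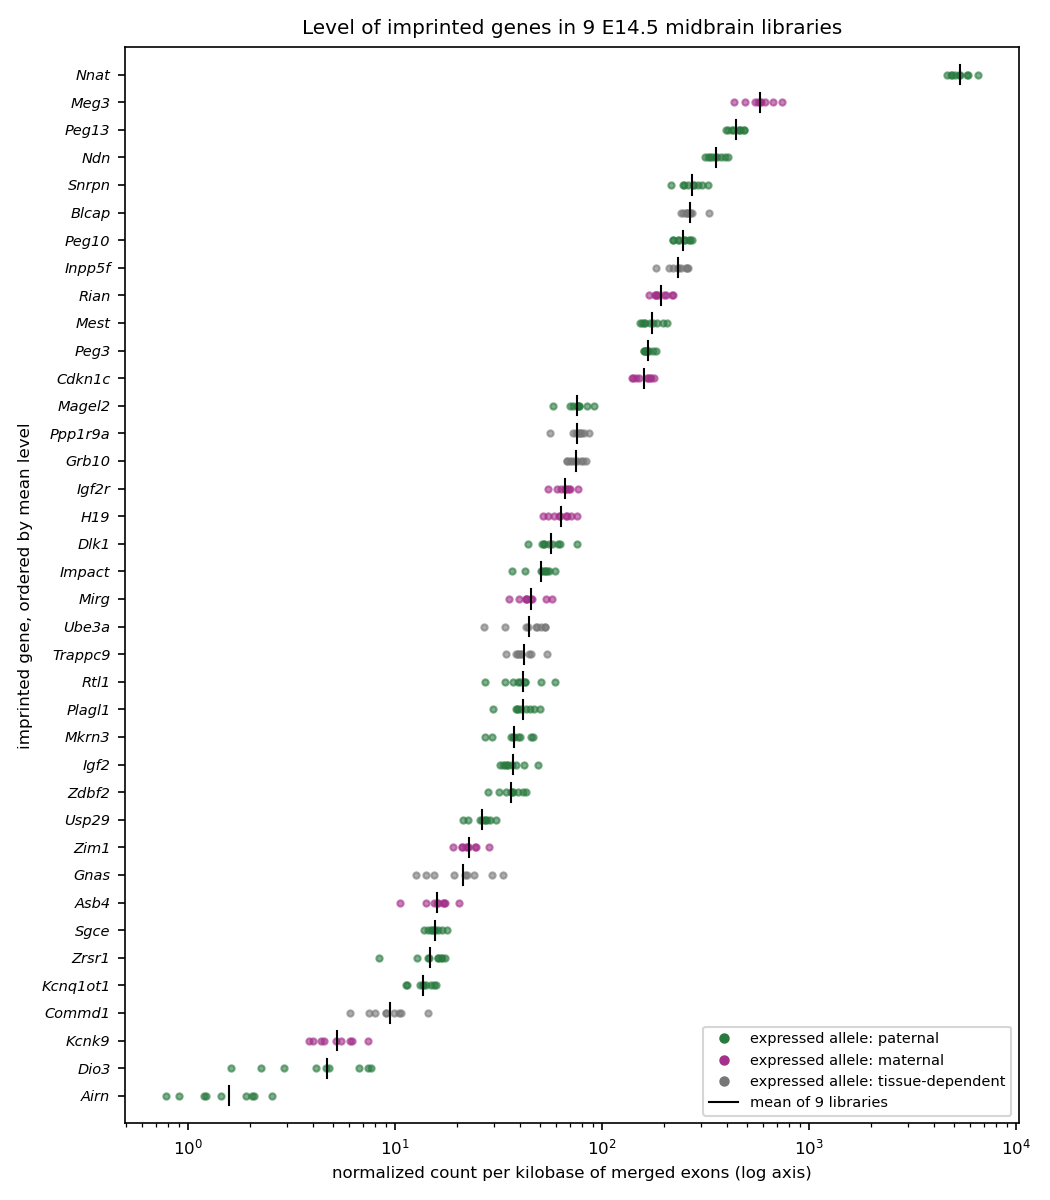
Normalized count per kilobase of merged exons (log axis) for 38 imprinted genes with at least 1 read in every library, with 1 point for each of the 9 libraries, the mean as a bar and color for the expressed allele. *Nnat* sits apart at 5371, a gap follows *Cdkn1c* at 159, and the other neighbors overlap.

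Some levels depend on the annotation. Of the 5723 merged exon bases of *Igf2*, 3694 are shared with another gene model on the same strand or its antisense RNA, and dividing the same count by the unshared length only gives 105 in place of 37.2. By the same division *Snrpn* moved to 411, *Cdkn1c* to 229, *Mest* to 226, *Ube3a* to 61.3 and *Usp29* to 31.0. Whether counting used the strand is not given in the sources used here, so reads of *Mest* and *Copg2*, of *Zrsr1* and *Commd1* or of *Gnas* and *Nespas*, which overlap on opposite strands, may not be told apart.

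Within domains, growth promoting and growth restraining genes were both present. In the *H19*-*Igf2* domain, *H19* had 128 to 187 normalized counts and *Igf2* 184 to 282, and the log2 ratio of *H19* to *Igf2* was between -0.70 (column 7) and -0.10 (column 9). In the *Igf2r*-*Airn* domain the receptor gene had 511 to 709 normalized counts and the antisense RNA 2.81 to 9.15. In the *Kcnq1* domain, *Cdkn1c* (285 to 364 normalized counts) and the antisense RNA *Kcnq1ot1* were both well covered, while *Kcnq1* had at most 17 reads in a library.

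Igf2 in the embryonic brain is known to come largely from meninges, choroid plexus and vessels, so markers of these were set beside it. The summed level of 8 markers of meninges and mesenchyme was 215 to 335 normalized counts in homozygous libraries, 207 to 250 in heterozygous libraries and 276 to 400 in wild-type libraries, with *Lum* and *Slc22a6* near 0. The summed level of 6 choroid plexus markers was 21.8 to 34.4, 16.3 to 42.4 and 35.1 to 75.0 in the same order, and that of 6 endothelial markers 602 to 722, 664 to 698 and 603 to 696. For the correlations each list was taken as the mean of log2(normalized count + 1) over its genes, not as the sum. Across the 9 libraries *Igf2* had a Pearson r of 0.0015 with the meninges mean (exact permutation p = 0.997, Spearman rho 0.37). This r became 0.63 without columns 2 and 7, the libraries farthest from the *Igf2* median. With the choroid plexus mean r was 0.30 (exact permutation p = 0.42, Spearman rho 0.28), and with the endothelial mean -0.39 (exact permutation p = 0.31, Spearman rho -0.17), so no relation was detectable with 9 libraries. In bulk tissue fewer cells of a type and less RNA per cell cannot be told apart.

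The first comparison asked whether imprinted genes differ between homozygous and wild-type midbrains. None of the 39 tested members had an unadjusted p under 0.05 in limma, beside 2.6% of the 16993 genes tested (1.38% higher and 1.22% lower). By count tests on the recovered reads, 0 members passed in edgeR and 0 in DESeq2, beside 421 and 316 of all genes. No member had libraries that did not overlap between the 2 genotypes, beside 9.52% of all genes (5.08% higher and 4.43% lower), and the limma adjusted p of every gene was 1.0. The median log2 fold change was -0.02 over the members and 0.01 over all genes tested. The 95% interval of a member's log2 fold change reached a median of 0.33 to either side. A p above the threshold does not show that levels were equal.

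The 3 members with the smallest p all had lower means in homozygous libraries, without passing the test. *Commd1* (chromosome 11, 22896136 to 22982382, minus strand), which encodes a regulator of copper and NF-kappaB, had 85.3, 44.2 and 58.9 normalized counts in columns 7 to 9 and 53.4, 47.6 and 36.1 in columns 1 to 3. The first of these columns, 7, stood far above the others, and the log2 fold change was -0.42 ± 0.25 (SE, p = 0.121, exact permutation p = 0.3). Without column 8, the lowest of the 3 wild-type libraries, it was -0.64 with an unadjusted p under 0.05, and without column 7 or 3 it was -0.17 or -0.26 and missed the threshold.

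*Mkrn3* (chromosome 7, 62417593 to 62420139, minus strand), which is known as a brake on the onset of puberty, had 95.7, 102 and 92.7 normalized counts in columns 7 to 9. The homozygous libraries had 94.8, 75.0 and 69.6, of which only the first reached the wild-type range. The log2 fold change was -0.29 ± 0.18 (SE, p = 0.125, exact permutation p = 0.2), and -0.42 with p = 0.049 without column 1. It was -0.20 without column 3 and -0.16 under upper-quartile scaling, both without passing.

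*Nnat* (chromosome 2, 157560078 to 157562522, plus strand) had 10639, 9289 and 10699.8 normalized counts in columns 7 to 9 and 9808, 8519.9 and 8933 in columns 1 to 3, so that the groups overlapped only through columns 1 and 8. Its log2 fold change was -0.17 ± 0.13 (SE, p = 0.225, exact permutation p = 0.2), with -0.23 to -0.12 over libraries left out and -0.041 under upper-quartile scaling. *Nnat* also weighs on the summed normalized counts of the 21 paternally expressed genes, which were 21431 to 22053 in homozygous libraries and 22254 to 23942 in wild-type libraries. These sums did not overlap, and the heterozygous sums (22112 to 24749) also lay above all homozygous ones. No test was made of them. Without *Nnat* the sums of the other 20 genes overlapped, with 12245 to 12911 and 12453 to 13303, and 12761 to 13245 in heterozygous libraries. The sums of the 12 maternally expressed genes, 15537 to 17735 and 13917 to 16127, overlapped.

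**Figure D2:**
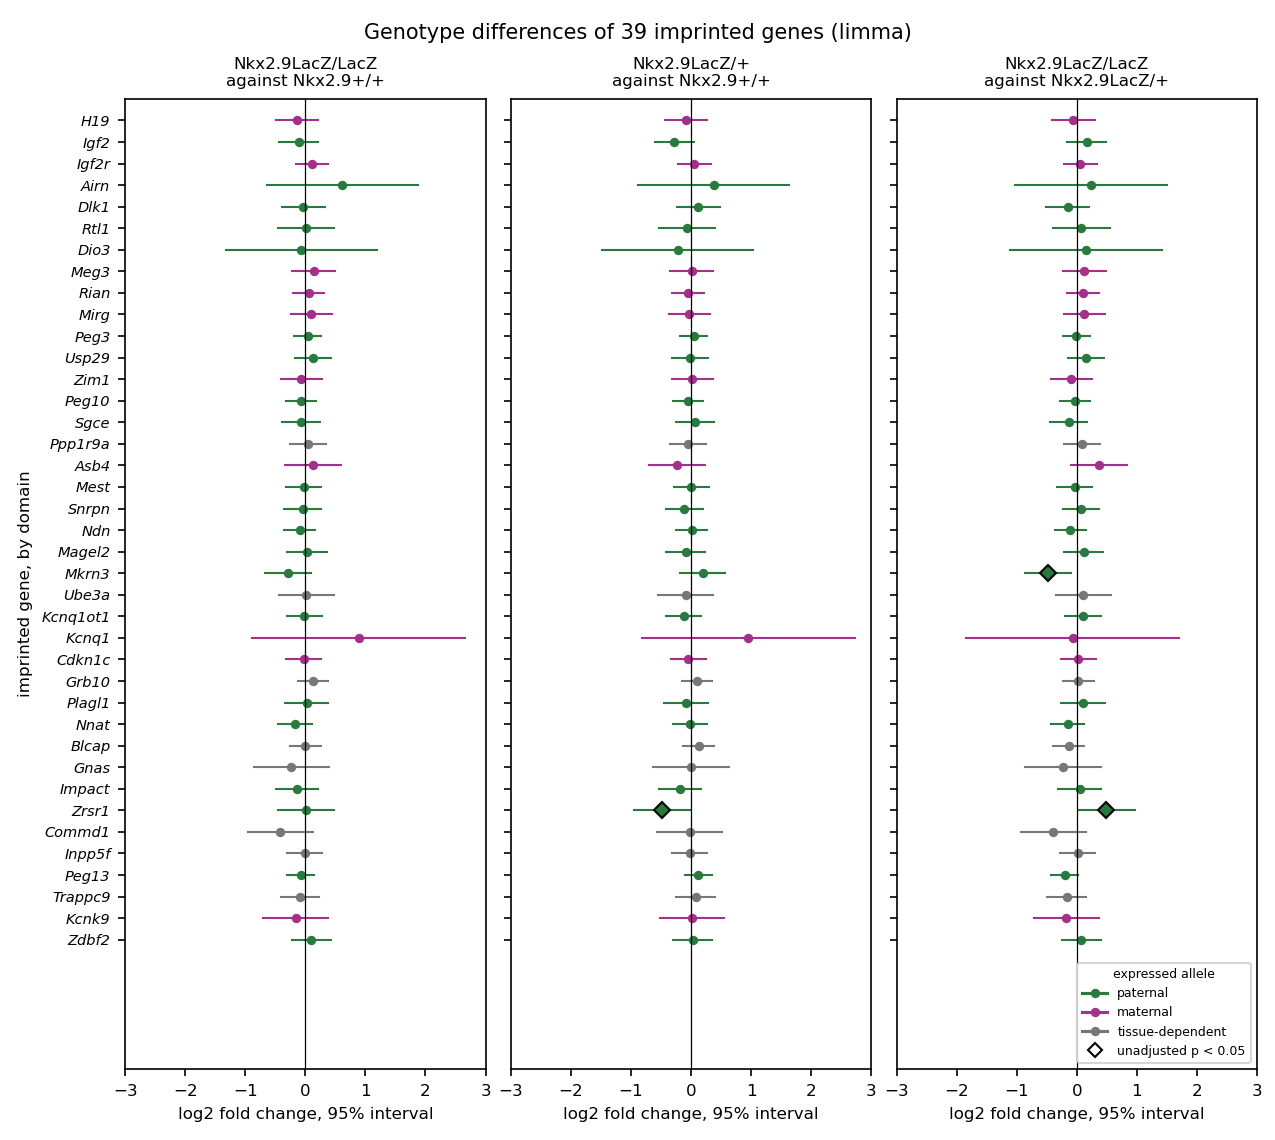
Log2 fold changes from limma with 95% intervals for the 39 tested imprinted genes, grouped by domain and colored by expressed allele, for the 3 pairs of genotypes. Diamonds mark an unadjusted p under 0.05, of which there are 0, 1 and 2, and the intervals of the others include 0.

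Growth genes can be read off one by one in this comparison. *Igf2* had 234 ± 42.5 normalized counts in wild-type libraries and 215 ± 23.0 in homozygous libraries (SD, n = 3 each), and *H19* 165 ± 27.1 and 149 ± 18.9. *Igf2r* had 591 ± 72.0 and 639.5 ± 72.2, *Grb10* 642 ± 31.0 and 700.2 ± 44.5, and *Cdkn1c* 329 ± 27.7 and 324 ± 30.5. The ranges overlapped in each of these genes. *Plagl1*, known to act on other imprinted genes, had 326 ± 35.6 and 330.3 ± 26.1, and *Peg3* was the steadiest, with 2173 ± 13.6 and 2236 ± 108.

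In the second comparison, of heterozygous with wild-type midbrains, 1 of 39 members had an unadjusted p under 0.05 in limma, beside 2.78% of all genes tested (1.31% higher and 1.48% lower). *Zrsr1* (chromosome 11, 22972005 to 22976496, plus strand), a paternally expressed retrogene for a splicing factor within *Commd1*, had 75.0, 65.3 and 78.0 normalized counts in columns 7 to 9 and 37.5, 64.9 and 57.1 in columns 4 to 6. All 3 heterozygous libraries lay below all 3 wild-type libraries, with column 4 far below the other 2. The log2 fold change was -0.48 ± 0.22 (SE, p = 0.0465, limma adjusted p = 1.0, exact permutation p = 0.1, the smallest that 3 against 3 libraries allow). Without column 4 it was -0.25 and missed the threshold, as it did without column 7 (-0.45) or 9 (-0.43) and with *Xist* as a covariate (-0.50). Neither edgeR (-0.41) nor DESeq2 (-0.41) called it. Over all alternatives the unadjusted p was between 0.018 and 0.299, beside the exact permutation p of 0.1. Column 4 held only 23 reads of *Zrsr1*.

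Libraries did not overlap in 3 of the 39 members, beside 6.91% of all genes (3.4% higher and 3.51% lower). Apart from *Zrsr1* these were *Igf2* and *Peg13*. *Igf2* (chromosome 7, 142650766 to 142666816, minus strand) had 282, 219 and 201 normalized counts in wild-type libraries and 184, 189.6 and 198 in heterozygous libraries, a log2 fold change of -0.28 ± 0.15 (SE, p = 0.088, exact permutation p = 0.1), beside which the summed meninges markers given above were also lower in heterozygous libraries, without overlap. Among these markers *Col1a1*, a collagen gene, had 41.7 ± 9.38 in heterozygous and 71.4 ± 14.1 normalized counts in wild-type libraries, a log2 fold change of -0.77 (p = 0.0077, limma adjusted p = 1.0, exact permutation p = 0.1). The part of these cells in the *Igf2* values was not tested. *Peg13* (chromosome 15, 72805600 to 72810324, minus strand) had 2180.1, 2134 and 1926 against 2195, 2299 and 2297, so that all 3 heterozygous libraries were higher, by a log2 fold change of 0.12 ± 0.10 (SE, p = 0.254, exact permutation p = 0.1), which was 0.069 without column 9. The difference of *Igf2* was -0.14 without column 7, its highest library, and -0.38 without column 9. The number of members called under the alternatives ran from 0 to 2, with 2 without column 4 (*Magel2* and *Rtl1*), 2 without column 9 (*Igf2* and *Kcnq1*) and 0 without column 7. Of all 16993 genes, 933, 602 and 445 were called under the same omissions.

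The third comparison set homozygous against heterozygous libraries, where 2 of 39 members had an unadjusted p under 0.05, beside 2.64% of all genes tested (1.49% higher and 1.15% lower). *Mkrn3* was lower in homozygous libraries, with 94.8, 75.0 and 69.6 normalized counts against 116, 118 and 99.5, and the groups did not overlap. Its log2 fold change was -0.48 ± 0.18 (SE, p = 0.0162, limma adjusted p = 0.999, exact permutation p = 0.1), with p between 0.007 and 0.115 over the alternatives. It also passed in edgeR (-0.46) and DESeq2 (-0.47). It missed the threshold under upper-quartile scaling (-0.37), with *Xist* as a covariate (-0.42) and without column 2 (-0.44), 3 (-0.39) or 5 (-0.44).

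*Zrsr1* was higher in homozygous libraries, with 72.3, 72.3 and 75.6 against 37.5, 64.9 and 57.1 normalized counts, a log2 fold change of 0.49 ± 0.22 (SE, p = 0.0407, limma adjusted p = 0.999, exact permutation p = 0.1). The same 3 heterozygous libraries stand in both comparisons of *Zrsr1*, and without column 4 the difference was 0.26 and missed the threshold. The threshold was also missed in edgeR (0.43) and DESeq2 (0.43), with only the 2 genotypes (0.49), with *Xist* (0.55) or depth (0.46) as a covariate and without column 1 (0.50), 2 (0.50) or 3 (0.47). Its level in homozygous libraries differed from wild-type libraries by 0.02 ± 0.22 on the log2 scale (SE, p = 0.945, exact permutation p = 0.9).

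Libraries did not overlap in 4 members, beside 8.71% of all genes (4.62% higher and 4.09% lower). The other two were *Commd1*, with 53.4, 47.6 and 36.1 against 61.9, 53.8 and 63.6 normalized counts (log2 fold change -0.40 ± 0.25, SE, p = 0.141, exact permutation p = 0.1), and *Peg13*, with 1867, 2036 and 2011 against 2195, 2299 and 2297 (log2 fold change -0.20 ± 0.10, SE, p = 0.074, exact permutation p = 0.1). The differences of *Commd1* and of the retrogene within it thus had opposite signs between these 2 genotypes. Over libraries left out, *Commd1* was -0.51 (without column 1) to -0.24 (without column 3), and *Peg13* was -0.086 under upper-quartile scaling. *Peg13* was highest in heterozygous libraries against both other genotypes, at 2264 ± 59.4 beside 2080.1 ± 135 in wild-type libraries and 1971 ± 91.5 in homozygous libraries.

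**Figure D3:**
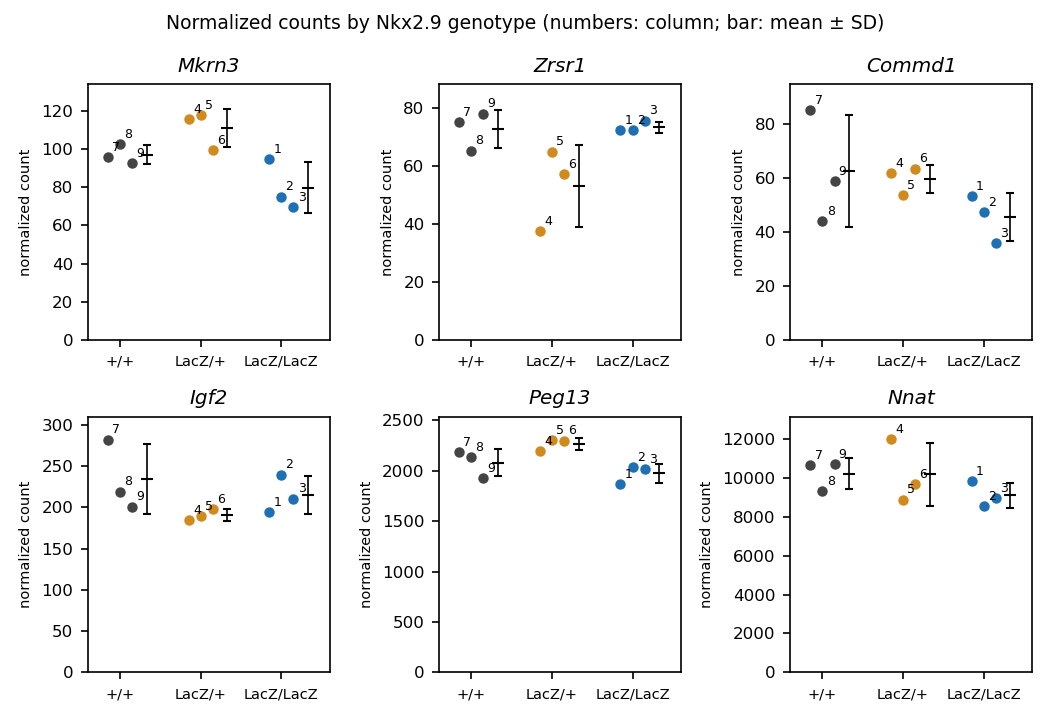
Normalized counts of the 6 imprinted genes that were among the 3 smallest p of a comparison, by genotype, with 1 point per library numbered by column and mean ± SD beside it (n = 3). *Zrsr1* is lowest in column 4 at 37.5, *Mkrn3* is lowest in columns 2 and 3, and *Peg13* is highest in heterozygous libraries.

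Column 4, a shallow heterozygous library, stood at the edge of the range for many members. It was the highest of the 9 libraries for 12 of 39 members and the lowest for 15, beside 22.1% and 24.3% of all genes. Column 7, the shallowest, was highest for 5 and lowest for 1, beside 17.0% and 17.0% of all genes. Without column 4, the members with an unadjusted p under 0.05 between homozygous and heterozygous libraries went from 2 to 7 (*Mkrn3*, *Peg13*, *Meg3*, *Mirg*, *Rtl1*, *Magel2* and *Asb4*), and without columns 4 and 7 to 8, with *Ube3a* added, beside 493 and 971 of all 16993 genes. The count of members was 0 without column 2 or 3 and 1 without column 1 or 5, beside 293, 296, 376 and 740 of all genes in that order. Without both columns, an alternative added after seeing the data, *Gnas* was lower in the homozygous and the remaining heterozygous libraries than in the 2 remaining wild-type libraries, by log2 fold changes of -0.53 and -0.62, with limma adjusted p of 0.996 and 0.881. *Gnas* and the genes of this paragraph were named after their values were seen. With all libraries *Gnas* had 158, 269 and 328 normalized counts in columns 7 to 9, 373, 172 and 216 in columns 4 to 6 and 249.9, 141 and 244 in columns 1 to 3, and its coefficient of variation of 32.5% was the largest among members with a mean of at least 100.

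In the *Dlk1*-*Dio3* domain, 4 genes had their highest level in column 4 together. *Meg3* (chromosome 12, 109541001 to 109571726, plus strand) had 11105, 8839 and 10244 normalized counts in columns 7 to 9, 13386, 9861 and 7814 in columns 4 to 6 and 10536, 10454 and 12146 in columns 1 to 3. *Mirg* had 417, 289 and 260.3 in columns 4 to 6, *Rtl1* 378, 235 and 174, and *Dlk1* 430.2, 313 and 289.6, so that all 4 genes were highest in column 4 of the 9 libraries. *Rian*, between *Rtl1* and *Mirg* on chromosome 12, was lowest there instead (3075, beside 3289.5 to 4010.4 elsewhere). *Dio3*, at the far end, had 2 reads in column 4.

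Across libraries, *Meg3* and *Dlk1*, expressed from opposite alleles, had a Pearson r of 0.63 (exact permutation p = 0.067, Spearman rho 0.58, p = 0.108), which was 0.31 without columns 4 and 6. Centred on genotype means, r was 0.76 (permutation p = 0.016 over all orders of the 9 libraries, adjusted 0.163). Centred values of each genotype sum to 0, so this p is only approximate. *Meg3* and *Rian*, expressed from the same allele, had r = -0.13 (exact permutation p = 0.734, Spearman rho -0.32), which was 0.14 without columns 4 and 6. Without column 4 alone, r was 0.36 for *Meg3* and *Dlk1* and 0.28 for *Meg3* and *Rian*, so the opposite signs rest on that library. *Meg3* exceeded *Dlk1* by a log2 ratio of 4.75 (column 6) to 5.40 (column 2). The heterozygous libraries (4.75 to 4.98) lay below the homozygous libraries (5.02 to 5.40) without overlap, and both overlapped the wild-type libraries (4.89 to 5.22). Ratios of other pairs of genes within domains were also computed, and this one was named after its values were seen. Of all single genes, 8.71% did not overlap between homozygous and heterozygous libraries. No test was made of the ratio of *Meg3* to *Dlk1*. The log2 ratio of *Mirg* to *Meg3* was the steadier one, between -5.09 and -4.81.

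**Figure D4:**
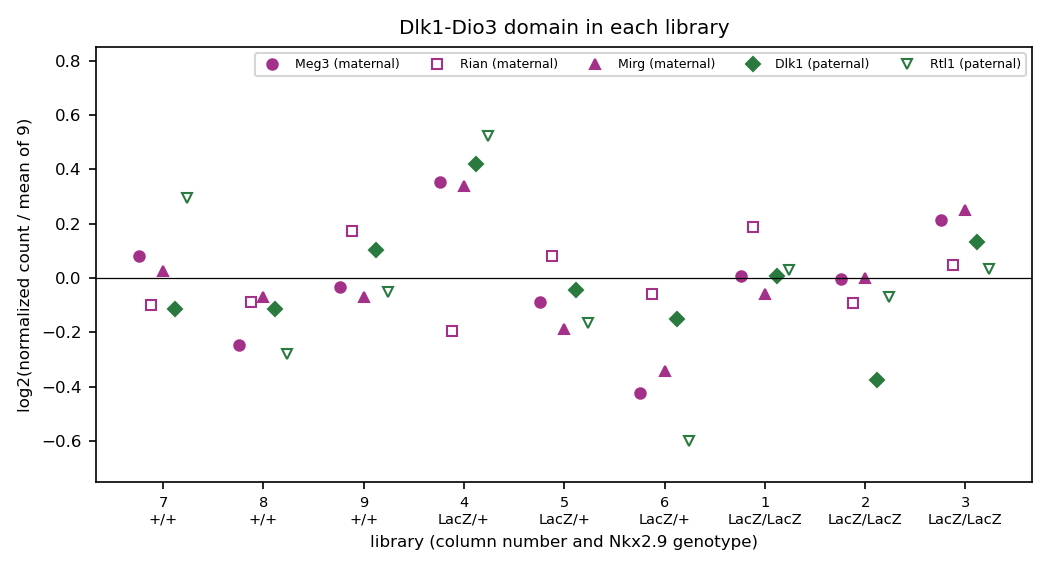
Log2 of the normalized count over the mean of the 9 libraries for 5 genes of the *Dlk1*-*Dio3* domain in each library. *Meg3*, *Mirg*, *Dlk1* and *Rtl1* are highest in column 4 and *Rian* is lowest there, and no genotype stands apart.

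Of 10 pairs looked at, none had an adjusted exact permutation p under 0.05. In the *Snrpn*-*Ube3a* domain, *Snrpn*, which is paternal, and *Ube3a*, which is maternal in neurons, had r = 0.66 (exact permutation p = 0.054, adjusted 0.334, Spearman rho 0.52), and r = 0.28 without column 4, where both were lowest (466 and 554 normalized counts). *Igf2* and *H19* had r = 0.22, *Peg3* and *Usp29* r = 0.11 and *Peg10* and *Sgce* r = 0.010 (exact permutation p = 0.570, 0.791 and 0.979, Spearman rho 0.20, -0.12 and 0.12). *Peg10* and *Sgce* share a divergent promoter region, and their r became 0.69 without columns 1 and 6. That of *Igf2* and *H19* became -0.16 without columns 2 and 7. *H19* and the mean log2 level of the meninges list had r = 0.063 (exact permutation p = 0.870), and -0.55 without columns 1 and 9.

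The spread of the members was close to that of all genes where the mean was at least 100. There the median coefficient of variation over the 9 libraries was 11.7% for 31 members and 12.3% for 7500 genes. Among all genes tested it was 12.4% for 39 members and 19.6% for 16993 genes, and neither comparison was matched by level. *Peg3* (4.68%), *Peg13* (7.35%), *Peg10* (7.83%) and *Grb10* (7.86%) varied least. *Rtl1* (22.5%) and *Ube3a* (20.1%) came after *Gnas* among the most variable members with a mean of at least 100.

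Imprinted genes outside the 41 were tested from a list of 33, of which 20 passed the filter on low values. *Pon2*, a paraoxonase gene near *Peg10*, was the only one with an unadjusted p under 0.05, 1 of 20 in 2 comparisons beside 2.78% and 2.64% of all genes. It had a log2 fold change of -0.95 ± 0.27 between heterozygous and wild-type libraries (SE, p = 0.0030, limma adjusted p = 1.0, exact permutation p = 0.1) and of 0.66 ± 0.27 between homozygous and heterozygous libraries (SE, p = 0.028, limma adjusted p = 0.999, exact permutation p = 0.1). Its normalized count was 46.1 ± 5.39 in wild-type libraries, 23.8 ± 6.46 in heterozygous libraries and 37.5 ± 4.83 in homozygous libraries (SD, n = 3 each). *Copg2*, which overlaps *Mest*, had 598 ± 54.2 in homozygous libraries and 508 ± 38.1 in wild-type libraries (p = 0.070, exact permutation p = 0.2). *Dcn*, which encodes a matrix proteoglycan, had 10.4 ± 6.50 in heterozygous libraries and 4.84 ± 5.18 in wild-type libraries (p = 0.114, exact permutation p = 0.3), and *Adam23* 375 ± 46.8 in homozygous libraries and 329 ± 32.0 in heterozygous libraries (p = 0.182, exact permutation p = 0.3).

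The machinery that keeps imprints was present in these midbrains. *Zfp57*, whose protein binds the motif shown above, had 836 to 1092 normalized counts, its partner *Trim28* 1012 to 1324, *Zfp445*, another zinc finger gene of imprint maintenance, 945 to 1494, and the maintenance methyltransferase gene *Dnmt1* 854 to 1169. *Dnmt3a* was at 1404 to 1691, *Dnmt3b* at 15.5 to 38.8, and *Dnmt3l*, known from germ cells, had 2 reads in all. None of the 14 tested of 16 listed genes had an unadjusted p under 0.05 in any comparison, beside 2.6%, 2.78% and 2.64% of all genes, so a count of 0 in so short a list is near the background. The nearest was *Setdb1*, a histone methyltransferase gene, with 566 ± 74.2 in homozygous libraries and 471 ± 40.6 in heterozygous libraries (log2 fold change 0.26 ± 0.13, SE, p = 0.057, exact permutation p = 0.2). *Zfp57* had 882 ± 33.3 in wild-type libraries, 959 ± 107 in heterozygous libraries and 1001 ± 116 in homozygous libraries, with overlapping ranges (p = 0.364 and 0.174 against wild-type libraries, exact permutation p = 0.4 and 0.3). *Dnmt3b* had 29.1 ± 9.83 in wild-type libraries, 18.8 ± 2.19 in heterozygous libraries and 19.6 ± 3.96 in homozygous libraries (p = 0.118 and 0.150 against wild-type libraries, exact permutation p = 0.3 for both).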

How the data were processed

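RNA of E14.5 midbrains (2 pooled per library, 9 libraries) was depleted of ribosomal RNA and sequenced as 100-bp paired ends. The labels describe isolation and library protocol differently and the series title speaks of cortex, so the article's methods are followed. The authors aligned reads with Hisat2 to GRCm38/mm10, counted them with featureCounts and deposited the signal per gene as a normalized count, the read count divided by a DESeq2 size factor. Versions of these tools, the annotation release, the strand setting and filters are not given in the sources used here. The authors' 3 tables of DESeq2 comparisons (fold changes, standard errors, test statistics and p-values) were not used.

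Whole reads were recovered for 100% of 210686 values above 0 (tolerance 0.001), and edgeR on them called 421, 372 and 451 genes at an unadjusted p under 0.05 in the 3 comparisons in the order of the report. Gene positions and exon lengths came from GENCODE M21 (GRCm38), and no row named no gene. limma 3.58.1 in R 4.3.3 was fitted to log2(normalized count + 1), on which fold changes of low genes are understated, with a mean-variance trend and 9 libraries in one fit. Tests were two-sided, and p-values were adjusted by Benjamini-Hochberg over the 16993 genes with a mean of at least 5. Exact permutation tests compared 3 with 3 libraries (smallest p 0.1), and correlations enumerated all 362880 orders in place of the planned resampling. Alternatives were pseudocounts of 0.5 and 5, no minimum or 20, upper-quartile scaling, only the genotypes compared, no trend, edgeR 4.0.16 with TMM and DESeq2 1.42.0 on recovered reads, *Xist* or depth as covariate, and each library left out, with columns 4 and 7 left out together as an alternative chosen after seeing the data. On simulated data of 16993 genes for the homozygous and wild-type libraries, 165 of 200 genes set to differ by 1 on the log2 scale had an unadjusted p under 0.05, as had 4.99% of 16506 unchanged genes. Simulated reads were drawn independently for each library, with no library made to stand apart, and the real comparison called 2.6% of genes. The set difference was also far above the members' median absolute log2 fold change of 0.078, so differences of that size were not simulated. Python 3.11.15 with matplotlib 3.10.9 made the figures.

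Members and lists were chosen with earlier results of these data known. Levels are given for all members, and fold changes for those with an unadjusted p under 0.05 or among the 3 smallest of a comparison. Of the lists of other imprinted genes and imprint maintenance, the 2 genes with the smallest p per comparison are named. Genes outside this rule were chosen after their values were seen.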

Additional observations from a re-analysis of the deposited data

How the results depend on the processing

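No paired analysis was possible because the columns carry no replicate number. Over leaving out each library in turn, members with an unadjusted p under 0.05 were 0 to 1 between homozygous and wild-type, 0 to 2 between heterozygous and wild-type and 0 to 7 between homozygous and heterozygous. Of all 16993 genes, 283 to 827, 445 to 933 and 293 to 740 were called under the same omissions. Without columns 4 and 7, chosen after seeing the data, the members called were 1, 1 and 8, beside 703, 852 and 971 of all genes. Between heterozygous and wild-type, 0 were called with a pseudocount of 5, upper-quartile scaling, only 2 genotypes, edgeR, DESeq2 or *Xist* as covariate. Of all genes, 477, 293, 280, 372, 264 and 298 were called in that order. Between homozygous and heterozygous, 1 was called with upper-quartile scaling, only 2 genotypes, edgeR, DESeq2 or depth as covariate, and 0 with *Xist*. There 381, 460, 451, 323, 539 and 353 of all genes were called in that order. The causes were not tested.

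Of the fold changes of the 6 named genes, 277 values under alternatives kept direction and side of the threshold, 25 no longer passed, 5 newly passed and 17 changed sign. Between homozygous and wild-type, *Igf2* was 0.013 under upper-quartile scaling, -0.21 to 0.028 over libraries left out and 0.028 without columns 4 and 7, *Zrsr1* was -0.029 with depth as covariate and -0.060 to 0.067 over libraries left out, and *Peg13* was 0.050 under upper-quartile scaling, which moved the median of all genes to 0.14 from 0.01. Calls there were 275 higher and 76 lower in place of 234 and 207 between homozygous and wild-type, and 333 and 48 in place of 253 and 196 between homozygous and heterozygous, where the median moved to 0.13. Between heterozygous and wild-type, *Nnat* was -0.14 to 0.080 and *Commd1* -0.25 to 0.22 over libraries left out, and *Commd1* was 0.010 in edgeR, 0.00014 in DESeq2, 0.037 with *Xist* and 0.19 without columns 4 and 7. Centred on genotype means, r was -0.071 for *Peg10* and *Sgce* and -0.35 for *Igf2* and meninges. The median level over members was 53.7 on unshared exons. Over all alternatives 263 to 1135, 242 to 1137 and 288 to 1132 of all genes were called, in place of 441, 473 and 449, with the most when no minimum was set. Low counts limited *Airn*, *Dio3* and *Kcnq1* most.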
